A study of Mus musculus with 12 samples.

Results

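Pf4, Ppbp and Itga2b, 3 of the 11669 genes in the table, are described here over 4 treatment groups of mouse cells. They were chosen by name, with earlier results of these data known. They are 2 chemokines stored in platelets and the integrin subunit found at the surface of platelets and their precursors. Platelets are shed by megakaryocytes, large cells of the marrow, and carry alpha granules that release their content when the platelet is activated. Pf4 (platelet factor 4, also Cxcl4) and Ppbp (pro-platelet basic protein, also Cxcl7) are CXC chemokines of those granules. Pf4 binds heparin and related glycosaminoglycans and lacks the Glu-Leu-Arg motif before its first cysteines. Ppbp carries that motif and is processed to a peptide that attracts neutrophils through Cxcr2. Itga2b (CD41) pairs with Itgb3 to form the fibrinogen receptor of platelets, and it also marks early hematopoietic progenitors. Pf4 is expressed in some macrophages and monocytes as well as in megakaryocytes.

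RNA was sequenced from 12 libraries, 3 in each group, 24 h after treatment. The 4 treatments were PBS, the particle NP@M, its form with D (NP-D@M), and NP-D@MP. PBS and NP@M lack D, while NP-D@M and NP-D@MP carry it, and NP-D@MP alone also carries P. By its title the series deals with a nanodrug coated with an engineered membrane of cancer cells and directed at CDKs, the cyclin-dependent kinases. NP, D, M, P and the cell line entry TAMC are not spelled out in the labels, which give immune cells as the cell type and marrow as the tissue. The labels' extraction protocol speaks of retinas, in conflict with that tissue. Of 15 monocyte and macrophage markers, all 15 were in the table, with a summed level of 2857 to 4192 FPKM in the libraries without D. Of 16 retina markers, 1 was in the table (Sag), with 0 to 11 reads. Whether the 3 libraries of a group came from separate cultures or animals is not given in the labels. The p-values therefore refer to library-to-library spread alone, which may be technical.

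Levels are in FPKM, fragments per kilobase of gene length, scaled to the library's size, so that genes of different length can be compared. The deposited values could be turned back into reads, 14444950 at the lowest (PBS replicate 3) and 17338264 at the highest (NP-D@MP replicate 1). The authors had divided by a library size of 31.6 to 38.1 M reads without D and of 7.84 to 8.87 M reads with D, so the scaling differs between these libraries by far more than their reads do. Each result is therefore given with the deposited scaling and again with FPKM computed from the read totals. Between NP-D@M and NP@M the change of scaling moved the median log2 fold change of all tested genes from 0.16 to -1.47, and between NP-D@MP and PBS from 0.13 to -1.48. Among the libraries without D, the third of PBS and the second of NP@M (replicates 3 and 2) stood apart from the rest, with 9.31% and 9.11% of genes at 0 against 2.65% to 2.96%. The libraries with D had 8.94% to 13.4% of genes at 0.

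On GRCm38, Ppbp (ENSMUSG00000029372) lies at chr5:90768518-90770063 and Pf4 (ENSMUSG00000029373) at chr5:90772435-90773383, both on the plus strand with 2371 bases between them. Itga2b (ENSMUSG00000034664) lies at chr11:102453297-102470122 on the minus strand. The first coding transcript listed has 3 exons for Pf4, 3 for Ppbp and 30 for Itga2b. The windows of 250 bases before the RefSeq start sites (GRCm38.p6) are shown because the genes' levels separated by D, for Itga2b only as deposited. They are written 5′ to 3′ on the strand of the gene, with matches to the searched motifs in capitals. The Pf4 window is chr5:90772185-90772434, the Ppbp window chr5:90768268-90768517 and the Itga2b window chr11:102469884-102470133, which lies before the coding transcript and overlaps the first exon of a noncoding transcript of the gene.
Pf4: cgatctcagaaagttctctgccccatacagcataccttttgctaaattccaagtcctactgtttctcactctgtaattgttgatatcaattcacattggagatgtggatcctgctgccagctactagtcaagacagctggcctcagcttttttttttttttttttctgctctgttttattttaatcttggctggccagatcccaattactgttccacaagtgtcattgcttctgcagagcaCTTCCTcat
Ppbp: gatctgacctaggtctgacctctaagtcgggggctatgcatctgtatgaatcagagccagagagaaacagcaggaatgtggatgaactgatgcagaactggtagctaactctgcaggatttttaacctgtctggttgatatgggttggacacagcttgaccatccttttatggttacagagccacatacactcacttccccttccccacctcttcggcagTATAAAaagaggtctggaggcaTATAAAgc
Itga2b: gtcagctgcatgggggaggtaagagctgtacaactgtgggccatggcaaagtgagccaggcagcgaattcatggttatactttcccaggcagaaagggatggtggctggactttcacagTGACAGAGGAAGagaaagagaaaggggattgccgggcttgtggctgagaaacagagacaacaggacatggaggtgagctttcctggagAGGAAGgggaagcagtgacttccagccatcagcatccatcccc

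Both strands were searched for 7 short motifs, and shares refer to 32817 RefSeq windows of the same length. AGATAA and TGATAA, letters bound by GATA factors, were in none of the 3 windows, and 9.99% and 7.95% of all windows held them. AGGAAG, a core of ETS factor sites, was in the Pf4 window once, on the other strand as CTTCCT, 9 bases before the start. The Itga2b window held AGGAAG at 125 and at 43 bases before the start, and 29.5% of all windows held it. TGACAG, letters bound by MEIS factors, stood directly before the first of these in Itga2b, and 15.9% of windows held it. TATAAA, the core of the TATA box, occurred in the Ppbp window at 30 and at 8 bases before the start and in 12.4% of windows. CGGAAG and TATAAG were in none of the 3 windows, against 13.6% and 6.66% of all windows. A match describes the letters only.

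Pf4 was among the most abundant messages in every library, and its level was far higher with D. Its levels were 951, 854 and 229 FPKM in PBS replicates 1, 2 and 3, and 970, 286 and 897 FPKM in the NP@M replicates. With D they were 18531, 23070 and 17660 FPKM in NP-D@M and 24699, 23349 and 23569 FPKM in NP-D@MP. The 2 low libraries, PBS replicate 3 and NP@M replicate 2, are those that stood apart, and no library without D came near any with D. By rank of level in its library, Pf4 was between 12 and 54 of 11669 genes without D and at 6 or 7 with D. The reads behind these values were 5216 to 24715 without D and 112961 to 155707 with D, which is 0.0361% to 0.164% and 0.671% to 0.898% of a library. From read totals, the levels were 2225, 2011 and 501 FPKM in PBS and 2273, 662 and 2107 FPKM in NP@M. On the same scale NP-D@M had 10254, 11132 and 9311 FPKM and NP-D@MP had 12456, 11383 and 11030 FPKM, so the separation by D stayed without overlap but was smaller.

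Ppbp separated the libraries in the same way, from a lower level. It stood at 256, 239 and 289 FPKM in PBS and at 225, 196 and 237 FPKM in NP@M. The NP-D@M replicates had 2227, 3023 and 2730 FPKM and the NP-D@MP replicates 3954, 2987 and 2158 FPKM. PBS replicate 3, the lowest library for Pf4, was the highest of the libraries without D for Ppbp. Reads were 7459 to 9902 without D and 18387 to 37438 with D. Scaled by read totals, the levels were 599, 563 and 633 FPKM in PBS and 528, 453 and 557 FPKM in NP@M. With D the read totals gave 1232, 1459 and 1439 FPKM for NP-D@M and 1994, 1456 and 1010.0 FPKM for NP-D@MP. Again every library with D was above every library without it.

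Itga2b was low throughout, and whether it was higher or lower with D depended on the scaling. As deposited it stood at 3.18, 3.05 and 2.08 FPKM in PBS and at 2.80, 2.39 and 2.87 FPKM in NP@M. The libraries with D had 6.85, 6.38 and 6.14 FPKM in NP-D@M and 9.96, 6.19 and 7.88 FPKM in NP-D@MP, all above those without D. Its reads were mostly fewer with D and overlapped. PBS had 597, 635 and 359 reads and NP@M 539, 458 and 590, while NP-D@M had 323, 273 and 297 and NP-D@MP 475, 275 and 338. From read totals the levels were 7.44, 7.19 and 4.56 FPKM in PBS and 6.55, 5.52 and 6.76 FPKM in NP@M. NP-D@M then had 3.79, 3.08 and 3.24 FPKM and NP-D@MP had 5.02, 3.02 and 3.69 FPKM. On that scale NP-D@M lay below both groups without D, and NP-D@MP replicate 1 lay above PBS replicate 3.

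**Figure D1:**
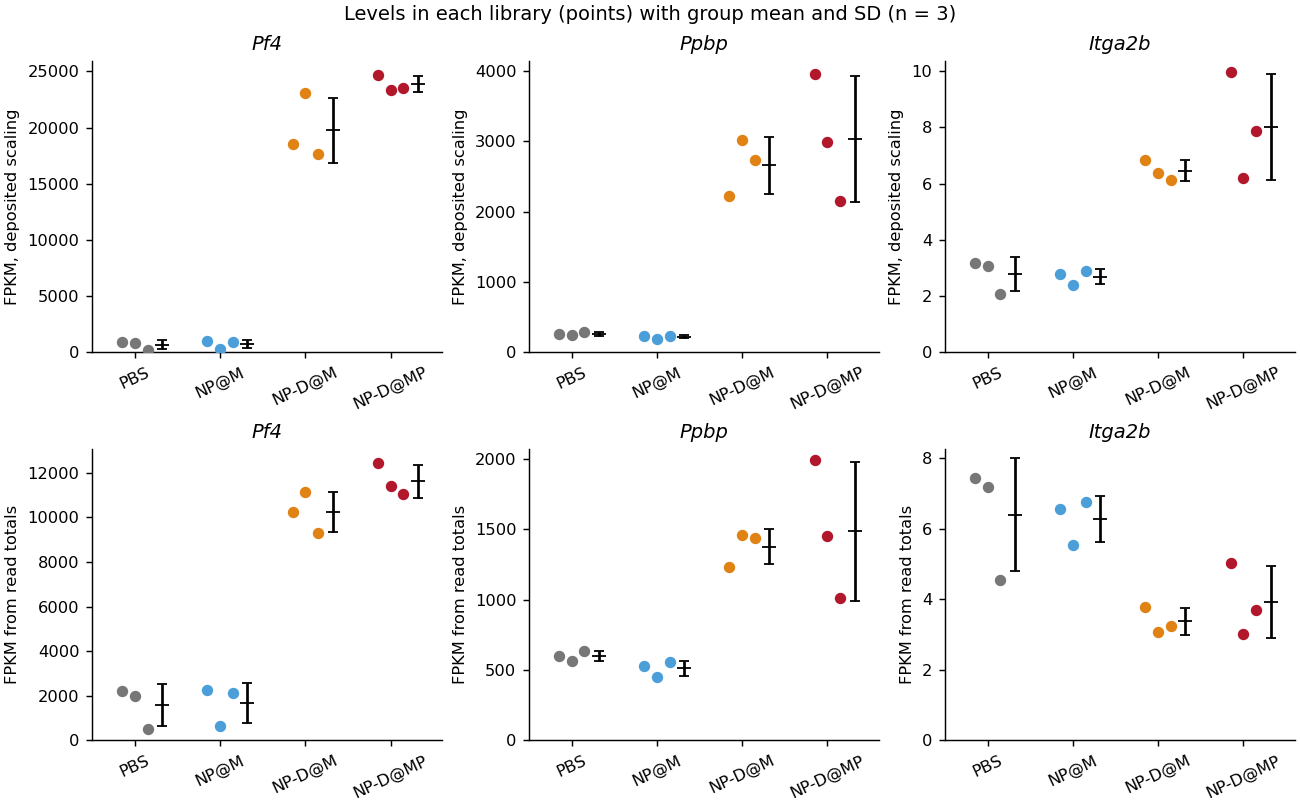
Levels of Pf4, Ppbp and Itga2b in FPKM, on linear axes from 0, in each library (points) with the group mean and SD (n = 3) beside them, with the deposited scaling in the upper row and from read totals in the lower row. Pf4 and Ppbp are higher in all 6 libraries with D in both rows, while Itga2b is higher with D in the upper row and mostly lower in the lower row, where NP-D@MP replicate 1 at 5.02 FPKM is above PBS replicate 3 at 4.56 FPKM.

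NP-D@M and NP@M differ in D. Pf4 rose from 718 ± 376 to 19753 ± 2905 FPKM (SD, n = 3 each) and Ppbp from 219 ± 21.2 to 2660 ± 403 FPKM. Itga2b rose with the deposited scaling, from 2.69 ± 0.262 to 6.46 ± 0.363 FPKM, and fell with the read totals. Pf4 and Ppbp did not overlap between the groups, as for 46.3% of the tested genes higher with D, or 12.9% with the read totals. Itga2b did not overlap either, as for 63.9% of genes lower with the read totals. All 3 genes were called, at an adjusted p under 0.05, but so were 91.2% of the 8615 genes tested, 45.2% as higher and 46.0% as lower. With the read totals, 70.8% were called, 9.12% as higher and 61.7% as lower. Whether a difference in level reflects the share of cells that hold a message or the amount per cell cannot be told apart in bulk RNA.

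On the log2(FPKM + 1) scale, limma gave Pf4 a fold change of 4.96 (SE 0.55, 95% interval 3.75 to 6.17, adjusted p = 9.0e-06). That was the 6th largest rise of the 8615 genes. With the read totals it was 2.80 (adjusted p = 0.00106), at percentile 99.8 of all tested genes. Without both libraries that stood apart, the values were 4.39 and 2.22. Ppbp had a log2 fold change of 3.59 (SE 0.24, 95% interval 3.07 to 4.11, limma's adjusted p = 2.34e-07), rank 173 of all tested genes. Read totals gave 1.42 for Ppbp (adjusted p = 0.000193), and quantile normalization, which forces equal distributions on all libraries, gave 0.66, which did not pass (adjusted p = 0.0582). Pf4 kept its call there at 1.56 (adjusted p = 0.0121).

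Itga2b had a log2 fold change of 1.02 (SE 0.19, 95% interval 0.61 to 1.43, limma's adjusted p = 0.000362) as deposited and of -0.74 (95% interval -1.18 to -0.29, adjusted p = 0.00681) with the read totals. Fitting the recovered reads with voom, limma's method for counts, gave -0.90 (adjusted p = 0.00768). Among all tested genes its change stood at percentile 63.6 as deposited and 60.0 with the read totals. Relative to the median of all genes it was therefore higher by 0.86 and by 0.73 on the log2 scale, so only its direction against 0 turned.

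NP-D@MP and PBS differ in the whole preparation, and each group here is also part of another comparison. Pf4 stood at 23873 ± 724 FPKM in NP-D@MP and 678 ± 392 FPKM in PBS (SD, n = 3 each), a log2 fold change of 5.38 (95% interval 4.17 to 6.60, limma's adjusted p = 4.92e-06), and of 3.15 with the read totals (adjusted p = 0.000443). Ppbp stood at 3033 ± 899 against 261 ± 25.5 FPKM, a log2 fold change of 3.49 (95% interval 2.97 to 4.01, limma's adjusted p = 2.73e-07) and of 1.26 with the read totals (adjusted p = 0.000495). Quantile normalization gave Ppbp 0.49, which did not pass (adjusted p = 0.145). Itga2b stood at 8.01 ± 1.89 against 2.77 ± 0.602 FPKM, a log2 fold change of 1.25 (95% interval 0.84 to 1.66, limma's adjusted p = 8.06e-05). With the read totals it was -0.59 (95% interval -1.04 to -0.14, adjusted p = 0.0225). That last call did not pass when PBS replicate 1 (-0.48), PBS replicate 2 (-0.50), NP-D@MP replicate 2 (-0.45) or NP-D@MP replicate 3 (-0.56) was left out, while it passed at -0.78 without PBS replicate 3. Values did not overlap, higher with NP-D@MP, for all 3 genes and for 44.7% of the genes tested as deposited, and for Pf4, Ppbp and 10.6% of the genes with the read totals. In this comparison 91.5% of tested genes were called as deposited, 45.7% higher and 45.8% lower, and 71.4% with the read totals, 9.01% higher and 62.4% lower.

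**Figure D2:**
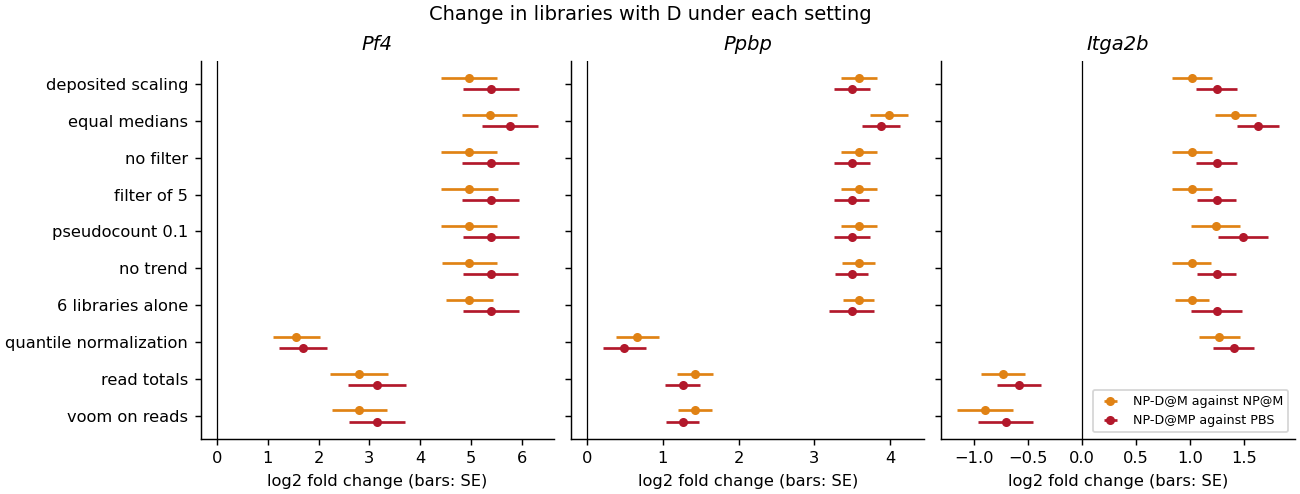
Log2 fold change with its SE for each of the 3 genes (columns) under 10 ways of scaling or fitting (rows), for NP-D@M against NP@M and NP-D@MP against PBS. Pf4 lies between 1.56 and 5.77 and Ppbp between 0.49 and 3.99, all above 0, while Itga2b lies between -0.90 and -0.59 in the lowest 2 rows, where libraries are scaled by their reads, and above 0 in the others.

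NP@M and PBS differ in the particle without D. None of the 3 genes was called, and limma called 0.0116% of the 8615 tested genes, which is 1 gene, while 27 had an unadjusted p under 0.05 and voom called 0. Pf4 differed by 0.14 on the log2 scale (95% interval -1.07 to 1.35, limma's adjusted p = 1). The value moved with the 2 libraries that stood apart, 1 in each group: leaving out PBS replicate 3 gave -0.52 and leaving out NP@M replicate 2 gave 0.71. Leaving out both gave 0.05. Ppbp differed by -0.25 (95% interval -0.77 to 0.27, limma's adjusted p = 1), and its 3 NP@M values lay below its 3 PBS values on both scales, as for 1.14% of tested genes (0.987% with the read totals). Leaving out the 2 libraries that stood apart gave -0.098 on both scales. Itga2b differed by -0.02 (95% interval -0.43 to 0.39, limma's adjusted p = 1). The read totals gave 0.17, -0.23 and -0.00 in the same order.

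NP-D@MP and NP-D@M differ in P, and here too no member was called. Limma called 0% of the tested genes, with 428 at an unadjusted p under 0.05, and voom called 1. The log2 difference was 0.28 for Pf4 (95% interval -0.93 to 1.50, limma's adjusted p = 1), 0.16 for Ppbp (95% interval -0.36 to 0.68) and 0.25 for Itga2b (95% interval -0.16 to 0.66). The 3 Pf4 values with P lay above the 3 without it as deposited, as for 8.58% of tested genes, and overlapped them with the read totals. Ppbp and Itga2b overlapped on both scales, with NP-D@MP replicate 1 the highest of the 6 libraries with D for each. These intervals still hold changes of more than 1 log2 unit for Pf4.

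The order of the 3 genes was Pf4, Ppbp, Itga2b in all groups, per length of gene, but the distance between them differed with D. Ratios within a library do not depend on the scaling between libraries. Pf4 was 3.72, 3.57 and 0.791 times Ppbp in PBS and 4.30, 1.46 and 3.78 times in NP@M. PBS replicate 3 was the only library with Ppbp above Pf4. With D the ratio was 8.32, 7.63 and 6.47 in NP-D@M and 6.25, 7.82 and 10.9 in NP-D@MP, above every library without D. Pf4 exceeded Itga2b 110 to 347 times without D and 2480 to 3773 times with D. Ppbp exceeded Itga2b 78.3 to 139 times without D and 274 to 483 times with D. In the 3 NP@M libraries this last ratio was nearly constant, at 80.6 to 82.4. These ratios are given as descriptions, with no test.

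**Figure D3:**
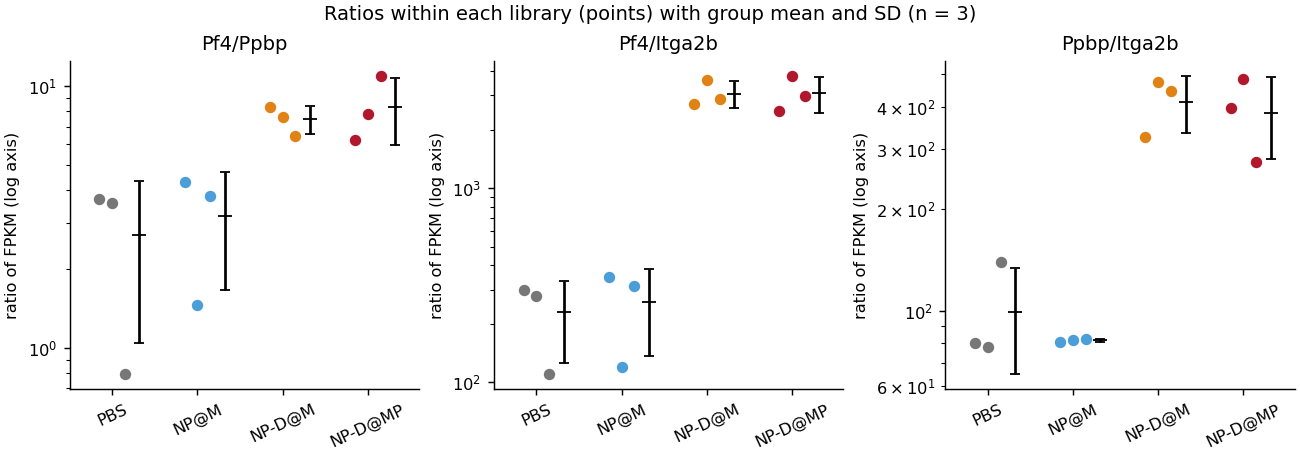
Ratios of FPKM between the genes in each library (points) with the group mean and SD (n = 3), on log axes. In all 3 panels every library with D lies above every library without D, and in the Pf4 to Ppbp panel PBS replicate 3 lies below 1, at 0.791.

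Among the partners of the 3 proteins, the change of Itgb3 depended on the scaling and Cxcr2 fell on both scales. Itgb3, the beta subunit that pairs with Itga2b, was at 2.18, 2.39 and 3.17 FPKM in PBS and 2.25, 3.31 and 2.57 FPKM in NP@M. It reached 10.6, 14.0 and 11.2 FPKM in NP-D@M and 11.4 to 12.1 FPKM in NP-D@MP. As deposited it rose between NP@M and NP-D@M by a log2 fold change of 1.80 (limma's adjusted p = 2.78e-06), and with the read totals the value was -0.02 (adjusted p = 0.921). Itgb3 was 0.686 to 1.52 times Itga2b without D and 1.21 to 2.19 times with D, so the ratios overlapped. Cxcr2, the receptor of the processed Ppbp peptide, fell from 12.3 ± 2.99 FPKM in NP@M to 0.239 ± 0.162 FPKM in NP-D@M (SD, n = 3 each). Its log2 fold change was -3.41 (limma's adjusted p = 8.98e-06) and -4.70 with the read totals. The 6 libraries with D held 1 to 23 reads of Cxcr2, against 1009 to 3134 without D. Cxcr3, named as a receptor for Pf4, was not analysed here.

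Pf4 and Ppbp lie in a cluster of CXC chemokine genes on chromosome 5, and its other tested members rose between NP@M and NP-D@M on both scales. Cxcl5 (chr5:90759360-90761624), Cxcl3 (chr5:90786103-90789600) and Cxcl1 (chr5:90891241-90893115) are neutrophil attractants of the Glu-Leu-Arg class. Between NP@M and NP-D@M, limma gave log2 fold changes of 3.26 for Cxcl5, 3.06 for Cxcl3 and 3.27 for Cxcl1, all called. With the read totals they were 1.12, 0.89 and 1.18, also called, narrowly for Cxcl3 and Cxcl1 (limma's adjusted p = 0.0431 and 0.0411). Of all tested genes, 45.2% were called higher as deposited and 9.12% with the read totals. Cxcl2, of the same cluster, rose by 3.91 and by 1.75. Cxcl1, Cxcl2 and Cxcl3 are close paralogs, so their reads may not be fully told apart. The log2 fold change of Pf4 was the largest of these 6 genes on both scales. Between PBS and NP-D@MP, Cxcl5, Cxcl3 and Cxcl1 rose by 1.43, 2.96 and 2.09 as deposited. On the scale of read totals Cxcl5 fell there by 0.76 (limma's adjusted p = 0.0127), while Cxcl3 stood at 0.72 (adjusted p = 0.0923) and Cxcl1 at -0.05 (adjusted p = 0.926), neither called. Cxcl15, between Cxcl3 and Cxcl1, had 0 to 8 reads and was not tested, nor was Gm42109. Afp, the neighbour beyond it, rose by 1.59 and by 0.63, but the latter was 0.44 and not called without both libraries that stood apart (adjusted p = 0.0610). Between PBS and NP-D@MP it rose by 1.53 as deposited and was not called with the read totals (limma's 0.36, adjusted p = 0.194). Afp passed the filter on low values only through libraries with D, so its rise as deposited was set by the filter.

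Cxcl5 and Ppbp, which are adjacent, differed in what was measured with P. Cxcl5 was at 287, 318 and 360 FPKM in NP-D@M and at 77.5, 114 and 76.7 FPKM in NP-D@MP, with no overlap, as for 6.14% of tested genes that were lower. Its log2 difference of -1.85 did not pass (limma's adjusted p = 0.0578), and it was -1.94 with the read totals (adjusted p = 0.0532). Without both libraries that stood apart, which are in neither group but add to the estimated spread, it passed at the same size (adjusted p = 0.0271, and 0.0233 with the read totals). Cxcl1 differed by -1.17 (adjusted p = 0.820), Cxcl2 by -0.66 and Cxcl3 by -0.34. The difference between Ppbp and Cxcl5 was not itself tested.

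**Figure D4:**
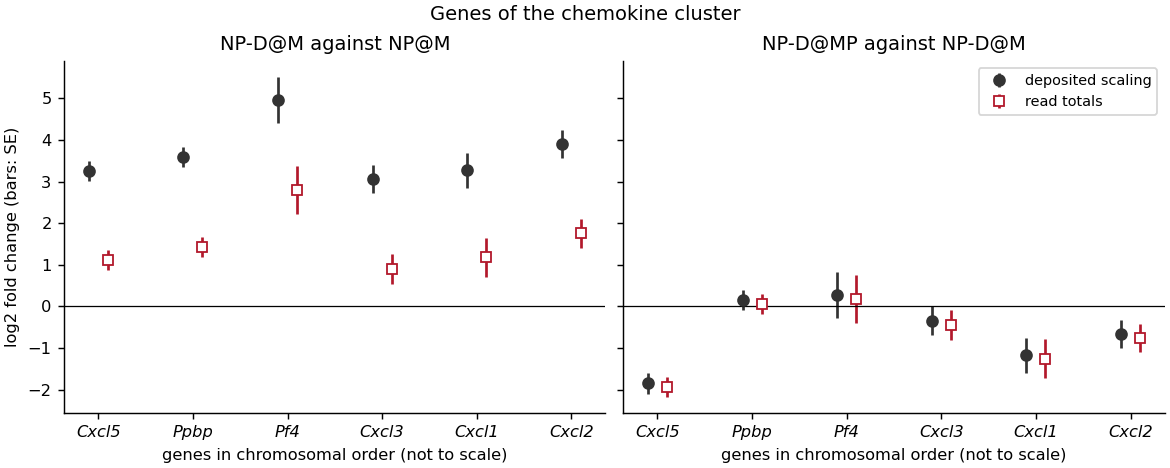
Log2 fold change with its SE for the 6 tested chemokine genes around Pf4 and Ppbp in chromosomal order, not to scale, with the deposited scaling (filled circles) and from read totals (open squares). On the left, NP-D@M against NP@M, all 6 lie above 0 on both scales, and Pf4 is highest at 4.96 and 2.80. On the right, NP-D@MP against NP-D@M, where none was called, Cxcl5 is lowest at -1.85.

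Around Itga2b the neighbours moved in both directions. Slc25a39 (chr11:102402985-102407946), a mitochondrial carrier, and Grn (chr11:102430315-102437048), the progranulin gene, rose by 3.21 and 3.13 on the log2 scale between NP@M and NP-D@M. With the read totals they differed by 1.08 (not called) and 0.97 (called), and without both libraries that stood apart Slc25a39 was called at 0.70 (limma's adjusted p = 0.00273). Gpatch8, on the other side, fell by 1.66 and by 2.71, and Kif18b fell by 0.93 and by 1.63. Gpatch8 went from 2.59 FPKM in NP@M to 0.127 in NP-D@M, and Kif18b from 0.962 to 0.0108. Both passed the filter on low values only through libraries without D and so had to be lower with D. Their falls describe these genes and support nothing. Eftud2, a component of the spliceosome, was the only one of these that turned direction as Itga2b did, at 1.11 as deposited and -0.83 with the read totals, both called. Fam171a2, next to Itga2b, was not tested.

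Other platelet and megakaryocyte genes were sparse. Of 27 markers 17 were in the table and 11 had a value of at least 1 FPKM in at least 3 libraries. The other 10 of the 27 were not analysed here. A marker that passed this filter through the libraries where it is high had to differ, so the counts describe the list and support nothing. Between NP@M and NP-D@M, 9 of the 11 rose, 1 fell and 1 was not called as deposited, with a median log2 fold change of 1.02 against 0.16 over all tested genes. With the read totals 3 rose, 3 fell and 5 were not called, with a median of 0.29 against -1.47. Over all tested genes 45.2% were called higher and 46.0% lower as deposited, and 9.12% and 61.7% with the read totals. Without both libraries that stood apart, 10 rose and 1 fell as deposited, and 4 rose and 3 fell with the read totals. Gng11, a G protein subunit, went from 3.12 ± 0.410 to 29.7 ± 5.06 FPKM, a log2 fold change of 2.89 (limma's adjusted p = 2.97e-06), and 0.99 with the read totals (adjusted p = 0.00998). Vwf, the adhesive protein von Willebrand factor, went from 7.47 ± 3.14 to 50.5 ± 9.28 FPKM, a change of 2.65 that was 0.62 with the read totals (limma's adjusted p = 0.0897).

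The genes more restricted to platelets were near the limit of detection. Gp9, of the receptor for von Willebrand factor, had 0 to 4 reads without D and 3 to 32 with D. Clec1b, the platelet receptor CLEC-2, had 14 to 30 reads without D and 28 to 88 with D. Gp6, the collagen receptor, had 0 to 1 and 0 to 7 reads, and Mmrn1, a granule protein, had 0 to 5 and 0 to 14. Selp, the P-selectin gene, had 20 to 85 reads without D and 18 to 31 with D. The ADP receptors went the other way in reads, with 78 to 171 for P2ry1 and 33 to 90 for P2ry12 without D, and 0 to 9 for each with D. None of Gp6, Mmrn1, Selp, P2ry1 and P2ry12 was tested. Gp9, Clec1b and Treml1 rose as deposited by 0.79, 0.91 and 0.63, and their values with the read totals were 0.35, 0.29 and -0.05, none called. F2rl2 differed by 0.34, which did not pass, and fell by 1.75 with the read totals. Nbeal2, needed to form alpha granules, fell by 2.55 and by 3.90.

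Without Pf4 and Ppbp the summed level of the platelet list was 39.9 to 49.6 FPKM in PBS and 42.1 to 62.9 FPKM in NP@M. With D it was 120.9 to 142.0 FPKM in NP-D@M and 127.4 to 138.7 FPKM in NP-D@MP. From read totals the order was the reverse, with 93.2 to 108.5 and 98.8 to 145.5 FPKM without D, and 66.9 to 74.9 and 61.7 to 69.9 FPKM with D. The summed macrophage markers were 30908 to 41456 FPKM in NP-D@M and 36220 to 38455 FPKM in NP-D@MP, against 2876 to 4192 in PBS and 2857 to 3468 in NP@M. From read totals they were 16297 to 20004 and 17942 to 18265 FPKM with D, against 6775 to 9177 and 6610 to 8151 FPKM without D. Of the 14 tested macrophage markers 12 rose and 2 fell between NP@M and NP-D@M, and 7 rose and 4 fell with the read totals. Over all tested genes 45.2% were called higher and 46.0% lower, and 9.12% and 61.7% with the read totals. The macrophage markers that fell are not named here. Among those that rose were Lyz2, a lysozyme gene of myeloid cells, by 3.65 and by 1.48, and Ms4a7, by 4.29 and by 2.45. The part of these cells in the levels of Pf4 and Ppbp was not tested.

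Of 20 transcription factors known from megakaryocytes 18 were in the table and 15 were tested. Some passed the filter on low values only through the libraries without D and so had to be lower with D, and the counts describe the list and support nothing. Between NP@M and NP-D@M, 14 fell and 1 was not called as deposited (median -1.93, against 0.16 over all tested genes), and all 15 fell with the read totals (median -3.67, against -1.47). Over all tested genes 46.0% were called lower as deposited and 61.7% with the read totals. Nfe2, needed for platelet release, fell from 16.1 ± 4.77 to 0.192 ± 0.176 FPKM, a log2 fold change of -3.81 (limma's adjusted p = 7.16e-07). Fli1, an ETS factor that acts at megakaryocyte genes, fell by 2.74 and Tal1 by 2.09. With the read totals these 3 fell by 5.09, 3.96 and 3.18. Gata1, the master factor of megakaryocytes and red cells, had 0 to 15 reads without D and 0 to 2 with D and was not tested. The counts between PBS and NP-D@MP were the same, 14 and 15.

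**Figure D5:**
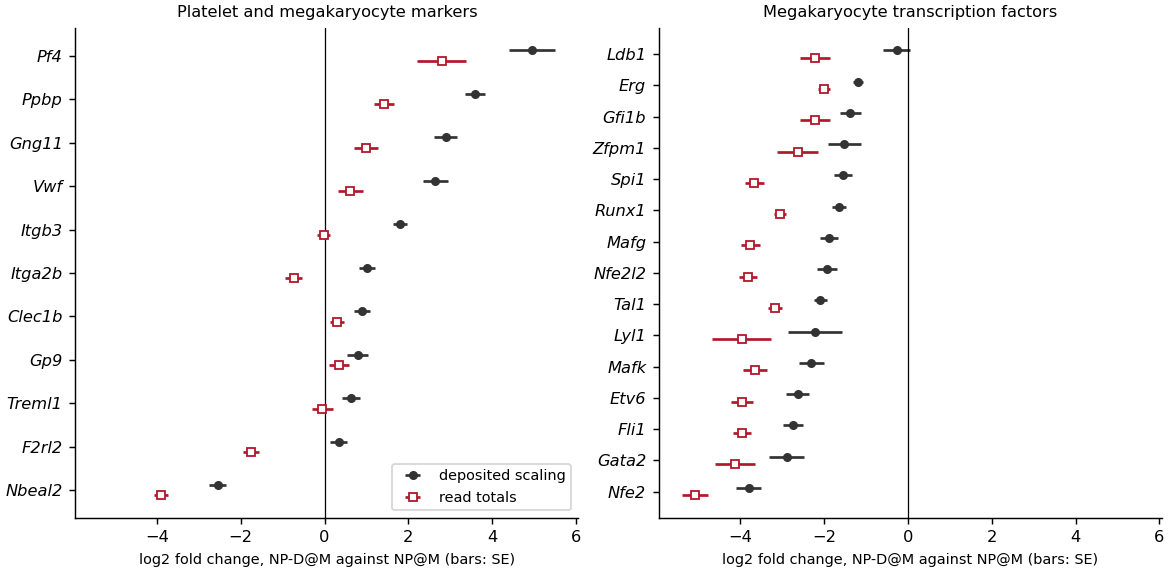
Log2 fold change with its SE between NP@M and NP-D@M for the 11 tested platelet and megakaryocyte markers (left) and the 15 tested megakaryocyte transcription factors (right), with the deposited scaling (filled circles) and from read totals (open squares). Pf4 and Ppbp are the top 2 markers on both scales and all 15 factors lie below 0 on both scales, although the fall of Ldb1 was called only with the read totals. Gfi1b had 0 reads in all 6 libraries with D, so its plotted value is set by the pseudocount.

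Cargo and packaging genes of alpha granules, a list that includes Pf4 and Ppbp, moved in both directions. Of 20 genes 18 were in the table and 15 were tested, and 10 rose and 5 fell between NP@M and NP-D@M, and 6 rose and 5 fell with the read totals. The shares over all tested genes were 45.2% higher and 46.0% lower, and 9.12% and 61.7% with the read totals. The list's median log2 fold change was 1.99 against 0.16 over all tested genes, and 0.62 against -1.47 with the read totals. Srgn, the granule proteoglycan that binds Pf4, rose from 150 ± 4.72 to 1580 ± 344 FPKM, a log2 fold change of 3.37 (limma's adjusted p = 3.65e-07) and of 1.21 with the read totals (adjusted p = 0.000817). Sparc, an extracellular matrix protein, rose by 1.26 and by 0.68. Thbs1, the platelet adhesive protein thrombospondin, fell from 623 ± 239 to 89.9 ± 25.6 FPKM, by 2.75 and by 4.90, and Vegfa, the endothelial growth factor, fell by 2.28 and by 4.10. Without the libraries that stood apart, 9 rose and 6 fell with the read totals. Among 16 tested genes of proteoglycans and the glycosaminoglycans to which Pf4 binds, 8 rose and 6 fell, and 5 rose and 8 fell with the read totals. Sdc1, a syndecan, rose by 2.64 and by 0.60, and Ext2, which builds heparan sulfate chains, by 2.73 and by 0.71. Ndst1, Ndst2 and Hs6st1, which sulfate those chains, fell by 2.91, 1.97 and 1.75 as deposited and by 4.43, 3.25 and 3.09 with the read totals.

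Other genes of the CXC family were counted by class. In the class with the Glu-Leu-Arg motif 6 of 8 genes were tested, and 5 ligands rose and Cxcr2 fell on both scales between NP@M and NP-D@M, where 45.2% of all tested genes were called higher as deposited and 9.12% with the read totals. In the class without it 4 of 14 genes were tested. There Pf4, Cxcl14 and Cxcl16 rose as deposited, Cxcl14 by 3.17 and Cxcl16 by 2.62. With the read totals Cxcl14 rose by 1.09 and Cxcl16 stood at 0.60, which did not pass (limma's adjusted p = 0.0592). Cxcr4, the receptor of Cxcl12, fell from 26.6 ± 7.28 to 0.370 ± 0.299 FPKM, by 4.32 and by 5.70. Between PBS and NP-D@MP the first class had the same count as deposited, but with the read totals 2 rose, 2 fell and 2 were not called.

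Itga2b was 1 of 13 tested integrin subunit genes out of 18 in the table. As deposited 11 rose, 1 fell and 1 was not called between NP@M and NP-D@M, with a median of 1.10 against 0.16 over all tested genes. With the read totals 4 rose, 4 fell and 5 were not called, with a median of -0.02 against -1.47. Over all tested genes 45.2% were called higher and 46.0% lower as deposited, and 9.12% and 61.7% with the read totals. Without both libraries that stood apart, 12 rose and 1 fell as deposited, and 6 rose and 5 fell with the read totals. Itgb7, Itgax and Itgb2, subunits of leukocyte integrins, rose by 3.07, 2.91 and 2.65 and by 0.93, 0.75 and 0.49. Itga5, of the fibronectin receptor, fell from 20.9 ± 0.855 to 2.60 ± 0.234 FPKM, by 2.61 and by 4.41. Of all tested genes, 46.0% were called lower as deposited and 61.7% with the read totals. Of 12 tested genes in a list written for integrin activation and adaptors, 1 rose and 9 fell, and all 12 fell with the read totals. Without both libraries that stood apart 3 rose and 9 fell as deposited, the same numbers as between PBS and NP-D@MP. Syk, the kinase behind Clec1b and Gp6, fell from 34.0 ± 2.52 to 1.87 ± 0.405 FPKM, by 3.62 and by 5.35. Ptk2b fell by 1.89 and by 3.79 and Filip1l by 2.05 and by 3.16, while Parvg rose by 1.16 and fell by 0.97 with the read totals. Filip1l is counted as listed, and a role of it in integrin activation was not tested.

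Markers of other cells were counted between NP@M and NP-D@M, where 45.2% of all tested genes were called higher and 46.0% lower as deposited, and 9.12% and 61.7% with the read totals. Of 12 erythroid markers 1 was tested, Tfrc, the transferrin receptor, which rose by 1.22 and stood at -0.68 with the read totals, not called. Of 12 mast cell and basophil markers 3 were tested, 0 rose and 1 fell (Gata2, by 2.89), and all 3 fell with the read totals. Of 11 progenitor markers 4 were tested. Cd34, Ly6a and Procr rose by 0.75, 3.18 and 3.02 and Sox4 fell by 1.64, and with the read totals Ly6a alone rose, by 1.73. Of 13 tested neutrophil and precursor markers 4 rose and 4 fell, and with the read totals 0 rose and 11 fell. These counts were 4 and 8, and 1 and 11, without both libraries that stood apart. Of 8 tested dendritic cell markers 3 rose and 3 fell, and 1 rose and 4 fell with the read totals. Only 2 markers of T, NK and B cells were tested, of which 1 rose (Cd4, by 1.73 and by 0.80), and 1 fell with the read totals. All 3 tested endothelial markers, Pecam1, Cdh5 and Tie1, rose as deposited by 0.67, 1.04 and 1.13, and with the read totals Pecam1 fell by 1.19 and the others were not called. The summed endothelial markers were at 4.46 to 7.97 FPKM without D and higher, at 8.81 to 13.96 FPKM, with D as deposited. This sum is given as deposited only, and its order may turn with the read totals, as that of the platelet list did. Leaving out the libraries that stood apart, 2 mast cell markers fell and 2 T, NK and B cell markers rose as deposited, and 2 progenitor markers rose with the read totals. The part of these cells in the levels of the 3 genes was not tested.

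Genes whose levels ran most like each member were ranked by Pearson's r of log2(FPKM + 1) over the 12 libraries, as deposited unless stated. They were ranked among 3390 others with a mean of at least 5 FPKM (3391 for Itga2b). These values describe the split by D, which most of the table shares, and carry no p. For Pf4 they were Ctsd, Slc48a1, Dap, Npy and H13, at r of 0.999, and for Ppbp Spp1, Acat1, mt-Co1, mt-Rnr1 and Slc36a2, led by Spp1 at 0.996. Itga2b had Rps6ka4 at 0.992, then Pip4k2c, Cercam, Ucp2 and Gsn. With the read totals the genes were Npy, Slc39a11, Ctsd, Fth1 and Trem2 for Pf4. For Ppbp they were then mt-Rnr1, Spp1, Gstm5, Slc36a2 and Galns, and for Itga2b Rps6ka4, Ncln, Tap2, Sympk and Vat1. As deviations from the group means, which leave out the split, the genes most like Pf4 were Slc35c2 (0.996), Emc10, Tecr, Fxyd5 and Rpl37a. There the points are dominated by PBS replicate 3 and NP@M replicate 2, the low libraries of Pf4. Those most like Ppbp were Etfrf1 (0.916), Spp1, mt-Co1, mt-Rnr1 and Sh3glb1, and those most like Itga2b were Pip4k2c (0.964), Zfp358, Trim28, Git1 and Hk3. With the read totals the deviations gave Itga2b Pip4k2c, Trim28, Gsn, Ncln and Rps6ka4. Ppbp kept the same genes, and Pf4 had Ptms in place of Rpl37a.

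How alike the 3 members were to each other depended on the pair, the scaling and the measure. Pf4 and Ppbp had an r of 0.964 over the 12 libraries as deposited, 0.878 with the read totals, and 0.041 in deviations from the group means as deposited. Pf4 and Itga2b had 0.968 over all libraries as deposited, -0.63 with the read totals, and 0.627 in deviations. Ppbp and Itga2b had 0.950, -0.76 and 0.157 on the same measures. With the read totals the deviations gave 0.126 for Pf4 and Ppbp, 0.732 for Pf4 and Itga2b, and 0.250 for Ppbp and Itga2b.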

How the data were processed

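The authors deposited 1 table of FPKM values for 11669 genes in 12 libraries. The unit is not in the header and was judged from the numbers: multiplied by gene length and divided by a constant of its library, 100% of them lie within 0.05 of a whole number, and these are the reads used here. The method behind the authors' library sizes and the choice of genes for the table are not given in the sources used here, so p-values hold within the table. Bowtie 0.12.2 and mm8 are named, without role, in the submitters' processing notes. Coordinates equalled GENCODE M21 on GRCm38 for 11189 genes and all 3 members.

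Genes with at least 1 FPKM in 3 libraries, 8615 in all, were tested with limma 3.58.1 in R 4.3.3 on log2(FPKM + 1), which understates changes of low genes, with 4 group means, trend and robust options. Tests were 2-sided, with Benjamini-Hochberg adjustment over all tested genes of a comparison. Promoter windows came from RefSeq tables (3 of 3 matched). Members, gene lists and tests were chosen with earlier results of these data known. Named are the members, their partners, all tested platelet markers, up to 3 called genes per list and direction by adjusted p in NP-D@M against NP@M, up to 3 neighbours on each side and the 5 genes most alike. Gata1 and other untested markers were named with their values known. The fit was checked on simulated data scaled alike in all libraries, which does not test the difference in scaling with D.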

Additional observations from a re-analysis of the deposited data

How the results depend on the processing

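No paired analysis was possible because the labels carry no replicate numbers shared between groups. Besides the read totals, the alternatives were quantile normalization, equal medians, no filter, a filter of 5, a pseudocount of 0.1, no trend, the 6 libraries compared alone, voom on reads and leaving out each library. Leaving out both libraries that stood apart, and leaving out libraries with the read totals, were added after seeing the data. The rise of Pf4 with D kept its call in all 23 alternatives of each comparison with D, at 1.56 to 5.36 between NP@M and NP-D@M and at 1.69 to 5.77 between PBS and NP-D@MP. That of Ppbp lost it only with quantile normalization (0.66 and 0.49). Itga2b turned from 1.02 to -0.74 with the read totals, -0.90 with voom, -0.81 to -0.69 with the read totals and 1 library left out (0.96 to 1.06 as deposited), and -0.81 without both. Between PBS and NP-D@MP it turned from 1.25 to -0.59, -0.71, -0.78 to -0.45 (1.10 to 1.40 as deposited) and -0.78 in the same order. These 2 settings differ from the deposited scaling by the factor between libraries, by construction.

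Of the differences that were not called, that of Ppbp between PBS and NP@M kept its sign in all 23 alternatives, and others changed it. Between PBS and NP@M, leaving out 1 library gave Pf4 -0.52 to 0.71 (-0.53 to 0.74 with the read totals) and Itga2b -0.16 to 0.058 (-0.20 to 0.10). Between NP-D@M and NP-D@MP, quantile normalization gave Pf4 -0.042 and Ppbp -0.062. Leaving out 1 library gave Ppbp -0.056 to 0.38 (-0.18 to 0.31 with the read totals) and Itga2b 0.10 to 0.40 (-0.0066 to 0.29). The cause was not tested.

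The genes called between PBS and NP@M went from 1 to 0 with quantile normalization, no filter, a filter of 5, a pseudocount of 0.1, no trend, the 6 libraries alone, voom or without both libraries, and were 0 to 1 when 1 library was left out. Those between NP-D@M and NP-D@MP went from 0 to 8 with no filter, 2 with a pseudocount of 0.1, 1 with voom, 17 without both (1 with the read totals), and 0 to 4 when 1 library was left out (0 to 3 with the read totals), with the 4 and the 3 seen without NP-D@MP replicate 2. A filter of 5, which tests fewer genes, took 7855 to 4422 and 7882 to 4447 in the comparisons with D. Platelet markers with few reads were left out of the tests by the filter on low values, and their reads limit what can be said of them.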
